A study of Mus musculus with 12 samples.

Results

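The transcription factor Gata2, its relative Gata1 and 8 transcripts of mast cells were followed through RNA sequencing of mouse peritoneal macrophages. The 10 genes were chosen by name, and each was 1 row among the 34948 rows with a gene symbol in the table of counts. They are Gata2 and Gata1, the granule proteases Mcpt4, Tpsb2, Tpsab1 and Cpa3, the receptors Kit, Fcer1a and Ms4a2, and the enzyme Hdc. Of the 10, 8 had enough counts to be tested, and Fcer1a and Ms4a2 did not. The choice was made with one comparison already known, that of platelet-exposed with unexposed WT cells, in which Gata2 was high together with some of these markers. Values from that comparison are therefore given below as a description and without a test. The same WT libraries also enter the comparisons of KO with WT and of the responses. The choice of genes therefore bears on member values and p there too.

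The series holds 12 libraries, 3 in each of 4 groups. R300 KO cells came from mice labelled Mac-Ern1KO and were kept for 2 h with platelets that carried the antibody R300, which binds CD42 on the platelet surface. R300 WT cells came from mice labelled Ern1fl/fl, which carry the floxed allele, and had the same contact with platelets. Blank KO and blank WT cells came from the same genotypes and are labelled Con, with no word on whether uncoated platelets were added. All cells were harvested by the submitters from male mice at 8 weeks of age, 3 days after 3% thioglycollate was injected into the peritoneum to recruit macrophages. The labels do not name the promoter that drives Cre in the KO mice.

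GATA2 is a zinc finger factor that keeps blood progenitors in being and is needed for mast cells and basophils to form, and GATA1 is its relative in mast, red blood and platelet-forming cells. Resident mast cells of the peritoneal cavity store histamine, made by histidine decarboxylase (Hdc), together with a chymase (Mcpt4), tryptases (Tpsb2 and Tpsab1) and a carboxypeptidase (Cpa3). They depend on the stem cell factor receptor Kit and carry the IgE receptor, whose chains include those encoded by Fcer1a and Ms4a2. Macrophages and basophils can also make Hdc, and progenitors also carry Kit.

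The promoters are shown because the question is whether Gata2 and the protease genes followed one another. They are the 250 bases before the start of Gata2 and of 2 protease genes in RefSeq (GRCm38.p6), written 5′ to 3′ on the gene's strand, with GATAA on either strand (TTATC on the other) in capitals.
Gata2 (chr6:88193641-88193890, plus strand): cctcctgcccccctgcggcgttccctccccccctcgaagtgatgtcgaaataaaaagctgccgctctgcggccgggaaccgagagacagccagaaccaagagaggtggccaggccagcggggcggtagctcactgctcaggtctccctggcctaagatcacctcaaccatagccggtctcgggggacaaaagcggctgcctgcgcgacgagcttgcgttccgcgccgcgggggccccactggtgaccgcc
Mcpt4 (chr14:56062311-56062560, minus strand): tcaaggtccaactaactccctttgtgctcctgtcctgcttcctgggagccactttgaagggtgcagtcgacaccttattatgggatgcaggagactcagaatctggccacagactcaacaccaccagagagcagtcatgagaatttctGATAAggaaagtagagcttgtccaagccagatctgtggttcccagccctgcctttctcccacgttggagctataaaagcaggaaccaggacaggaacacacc
Cpa3 (chr3:20242182-20242431, minus strand): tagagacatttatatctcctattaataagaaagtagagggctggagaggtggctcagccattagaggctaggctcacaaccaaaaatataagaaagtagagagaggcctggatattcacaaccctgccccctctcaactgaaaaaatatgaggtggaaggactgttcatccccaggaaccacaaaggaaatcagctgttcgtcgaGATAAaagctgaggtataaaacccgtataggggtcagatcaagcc
RefSeq promoter entries were matched for 8 of the 10 genes, and Tpsb2 and Tpsab1 had none. The core letters GATAA occurred in 4 of those 8, Mcpt4, Cpa3, Fcer1a and Ms4a2, and in 22.6% of all 32851 promoter windows of this length. In Mcpt4 the match began 102 bases before the start, and in Cpa3 it began 45 bases before it. No match was found in the windows of Gata2 (2 starts), Gata1, Kit (2 starts) or Hdc. The other letters searched on both strands were TGACG, in 17.8% of all windows and in none of the members', and CACGTG or CATGTG, in 17.6% of all windows and in Fcer1a alone among the members.

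Several features of the libraries bear on every value that follows. Totals ran from 21765586 to 44273655 counts per library. Ern1, the targeted gene, showed no drop under the KO label, at 234.6, 225.2 and 174.5 CPM (counts scaled by TMM to the depth of each library) in R300 KO, against 203.7, 137.6 and 205.3 CPM in R300 WT, and at 149.8, 155.4 and 115.7 CPM in blank KO, against 112.8, 117.0 and 94.1 CPM in blank WT. Counts over a whole gene cannot show the loss of an exon, so KO and WT name the labels here. Although the mice are labelled male, 8 libraries held 142.9 to 590 CPM of Xist, a transcript of female cells, and the same 8 held 42.6 to 162.3 CPM of Y-linked transcripts. The other 4, replicate 3 of R300 KO, blank KO and blank WT and replicate 2 of R300 WT, held at most 0.0742 CPM of Xist and 205 to 223.9 CPM of Y-linked transcripts. Replicates 1 and 2 of R300 KO were nearly alike, with a median chi-square of 1.53 per gene, as were replicates 1 and 3 of R300 WT, with 1.37, against 6.15 to 10.3 for other pairs within a group. An R300 group may thus hold fewer than 3 independent samples. Of the labelled cell type's defining markers, Csf1r and Adgre1, receptors of macrophages, averaged 1712 to 1997 CPM and 601 to 644 CPM in the 4 groups.

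Gata2 was about 4 times higher in R300 than in blank cells of either genotype label. It lies on chromosome 6 at 88193891 to 88207032 of GRCm38 on the plus strand. In R300 KO it stood at 10.3, 8.14 and 7.15 CPM, against 2.24, 2.03 and 2.02 CPM in blank KO. All 3 R300 KO libraries were above all 3 blank KO libraries, by a factor of 4.06 (log2 2.02, SE 0.22; edgeR's quasi-likelihood test, Benjamini-Hochberg adjusted p = 0.00128). Gata2 was the 1 member of the 8 tested that passed as higher in that comparison, in which 0.695% of all 16546 tested genes did. In R300 WT it stood at 8.24, 9.45 and 10.4 CPM, against 2.42, 1.59 and 2.56 CPM in blank WT. Those groups did not overlap either, which held for 6.74% of genes in the direction of higher R300 WT, and the factor was 4.29 (log2 2.10, SE 0.22). In this WT comparison 0.55% of all genes passed as higher, and no call of a member is read from it, since the genes were chosen with it known. In bulk RNA, more cells of a type and more RNA per cell cannot be told apart.

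No difference in Gata2 between the genotype labels passed. It averaged 8.52 ± 1.60 CPM in R300 KO, 9.35 ± 1.06 CPM in R300 WT, 2.10 ± 0.12 CPM in blank KO and 2.19 ± 0.53 CPM in blank WT (SD, n = 3 each). KO and WT libraries overlapped in each treatment, and every R300 library was above every blank library. The KO minus WT difference (log2) was -0.13 (SE 0.21) with R300 and -0.054 (SE 0.22) in blank cells, and adjusted p by edgeR was 1.00 for both. The R300 response of KO minus that of WT was -0.079 on the log2 scale (SE 0.30, adjusted p = 1.00 by edgeR). Among the 4 libraries without Xist, Gata2 was 7.15 CPM in R300 KO, 9.45 CPM in R300 WT, 2.02 CPM in blank KO and 2.56 CPM in blank WT, so the gap between treatments was there within them too.

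**Figure D1:**
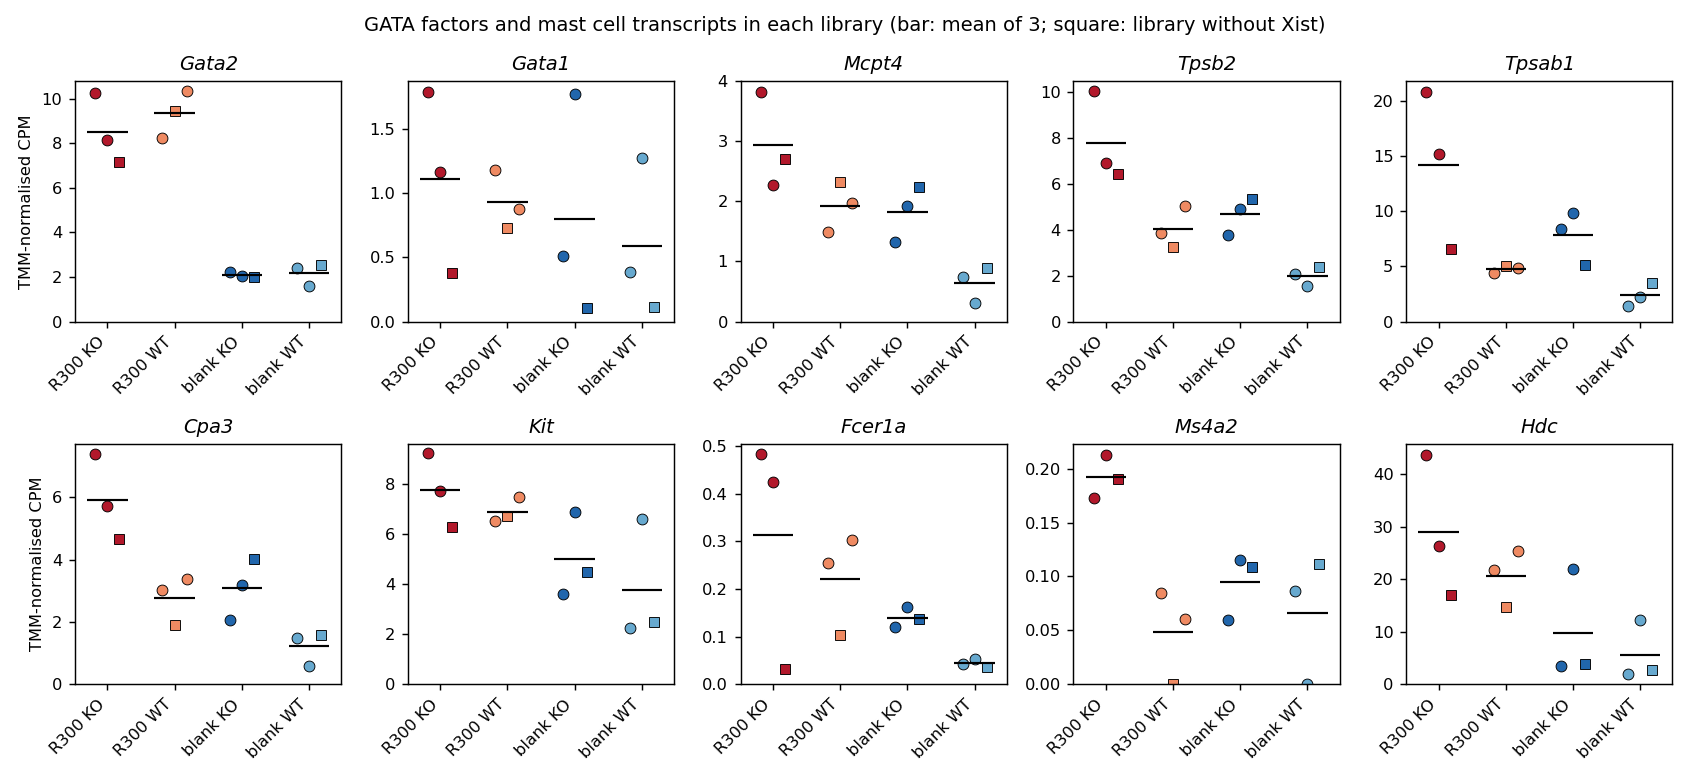
Each panel plots the TMM-normalised CPM of 1 gene in each library, by group, with a bar at the mean of 3 libraries and squares for the libraries without Xist. Gata2 separates R300 from blank cells and not KO from WT, whereas the proteases Tpsb2, Tpsab1 and Cpa3 lie higher in KO than in WT within each treatment, and Hdc and Gata1 have 1 high library in each blank group.

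Gata1 gave no such separation. Its gene lies on chromosome X at 7959260 to 7978071 on the minus strand. It stood at 1.79, 1.17 and 0.381 CPM in R300 KO, against 0.508, 1.78 and 0.109 CPM in blank KO. In R300 WT it stood at 1.19, 0.727 and 0.878 CPM, against 0.389, 1.28 and 0.111 CPM in blank WT. R300 and blank libraries overlapped in both genotypes, and replicate 2 was the highest of each blank group. The log2 change with R300 in KO was 0.46 (SE 0.91, adjusted p = 0.978 by edgeR), and it was -0.071 without blank KO replicate 3 and 1.85 without blank KO replicate 2. Of the 6 GATA family genes, all tested, none but Gata2 passed as higher in R300 KO against blank KO, the call given above. None passed as lower. Of all tested genes, 0.695% passed as higher there and 0.139% as lower. The median log2 change of the 6 was 0.22, against -0.00359 over all genes. Gata6, the factor of resident peritoneal macrophages, averaged 9.30 CPM in R300 KO, 8.58 CPM in R300 WT, 9.90 CPM in blank KO and 7.11 CPM in blank WT.

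The mean levels of the 4 granule proteases were higher in libraries labelled KO than in those labelled WT and higher in R300 KO than in blank KO, but none of these differences passed edgeR's test, and for Mcpt4 and Tpsab1 some of the groups overlapped. Tpsb2, a tryptase, lies on chromosome 17 at 25366305 to 25369098. It stood at 10.1, 6.94 and 6.42 CPM in R300 KO, against 3.87, 3.25 and 5.06 CPM in R300 WT. In blank KO it stood at 3.77, 4.90 and 5.35 CPM, against 2.08, 1.54 and 2.37 CPM in blank WT. Every KO library was above every WT library of the same treatment, and every R300 library above every blank library of the same genotype. The KO minus WT difference (log2) was 0.94 (SE 0.26) with R300 and 1.23 (SE 0.26) in blank cells, and that of R300 from blank was 0.74 (SE 0.25) in KO and 1.03 (SE 0.26) in WT.

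Tpsab1, the neighbouring tryptase gene at 25343245 to 25345562 on the same chromosome, had the widest genotype gap of the 4 proteases over all libraries. It stood at 20.8, 15.2 and 6.55 CPM in R300 KO, against 4.40, 5.02 and 4.85 CPM in R300 WT. In blank KO it stood at 8.40, 9.87 and 5.13 CPM, against 1.38, 2.21 and 3.52 CPM in blank WT. KO and WT did not overlap in either treatment, while R300 KO and blank KO did. The KO minus WT difference (log2) was 1.58 (SE 0.42) with R300 and 1.71 (SE 0.43) in blank cells. That difference was smaller in the libraries without Xist, whose values are given below. The transcripts of the 2 tryptases shared none of the 1636 stretches of 50 bases in those of Tpsb2, so long identical stretches through which they could share reads were not found.

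Cpa3, the mast cell carboxypeptidase, lies on chromosome 3 at 20215620 to 20242181. It stood at 7.38, 5.74 and 4.67 CPM in R300 KO, against 3.02, 1.90 and 3.36 CPM in R300 WT. In blank KO it stood at 2.06, 3.19 and 4.01 CPM, against 1.47, 0.599 and 1.59 CPM in blank WT. As with Tpsb2, the groups did not overlap in any of the 4 comparisons. The KO minus WT difference (log2) was 1.10 (SE 0.38) with R300 and 1.36 (SE 0.40) in blank cells.

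Mcpt4, the chymase of connective tissue mast cells, lies on chromosome 14 at 56059629 to 56062313. It stood at 3.83, 2.27 and 2.70 CPM in R300 KO, against 1.50, 2.32 and 1.97 CPM in R300 WT. In blank KO it stood at 1.32, 1.92 and 2.24 CPM, against 0.735, 0.312 and 0.890 CPM in blank WT. KO and WT overlapped with R300 but not in blank cells, where the log2 difference was 1.52 (SE 0.40), against 0.61 (SE 0.37) with R300. Of the 8 tested members its response differed most between genotypes in size, at a log2 difference (KO minus WT) of -0.91 (SE 0.54, adjusted p = 1.00 by edgeR), which did not pass. The blank WT libraries held 17, 12 and 24 reads of Mcpt4, so its level there was read from few counts.

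None of these protease differences passed the test across all genes. In R300 KO against R300 WT and in blank KO against blank WT, edgeR called 0 of 16546 genes (0%), with 324 and 181 genes at an unadjusted p under 0.05. DESeq2 called 4 genes in the blank comparison, of which Tpsb2 was 1 (adjusted p = 0.0498). For R300 KO against blank KO the adjusted p by edgeR was 0.330 for Tpsb2, 0.462 for Cpa3, 0.613 for Tpsab1 and 0.697 for Mcpt4. Non-overlap itself was rare between genotypes. Of all tested genes, 4.03% lay higher without overlap in R300 KO than in R300 WT, where 3 of the 8 tested members did so, and 1.74% did in blank KO against blank WT, where 4 did. Tpsb2, Tpsab1 and Cpa3 were among the 36 tested genes (0.218%) that did so in both treatments. The WT groups here are those of the comparison by which the genes were chosen, so these shares are a description. Between treatments non-overlap was commoner, at 6.64% of genes higher in R300 KO than in blank KO, where Gata2, Mcpt4, Tpsb2 and Cpa3 did so.

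A contrast of KO with WT averaged over both treatments was added after these values had been seen, and it uses the WT libraries by which the genes were chosen. It gave Tpsb2 a log2 difference of 1.09 (SE 0.18, adjusted p = 0.241 by edgeR), with every KO library above every WT library of its treatment, and 6 of 16546 genes had a lower p. Tpsab1 followed at 1.65 (SE 0.30, adjusted p = 0.246 by edgeR) and Cpa3 at 1.23 (SE 0.27, adjusted p = 0.460 by edgeR). Mcpt4 was at 1.06 (SE 0.27), whereas Gata2 was at -0.094 (SE 0.15). In that contrast 1 gene passed (0.00604%), and it was no member.

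**Figure D2:**
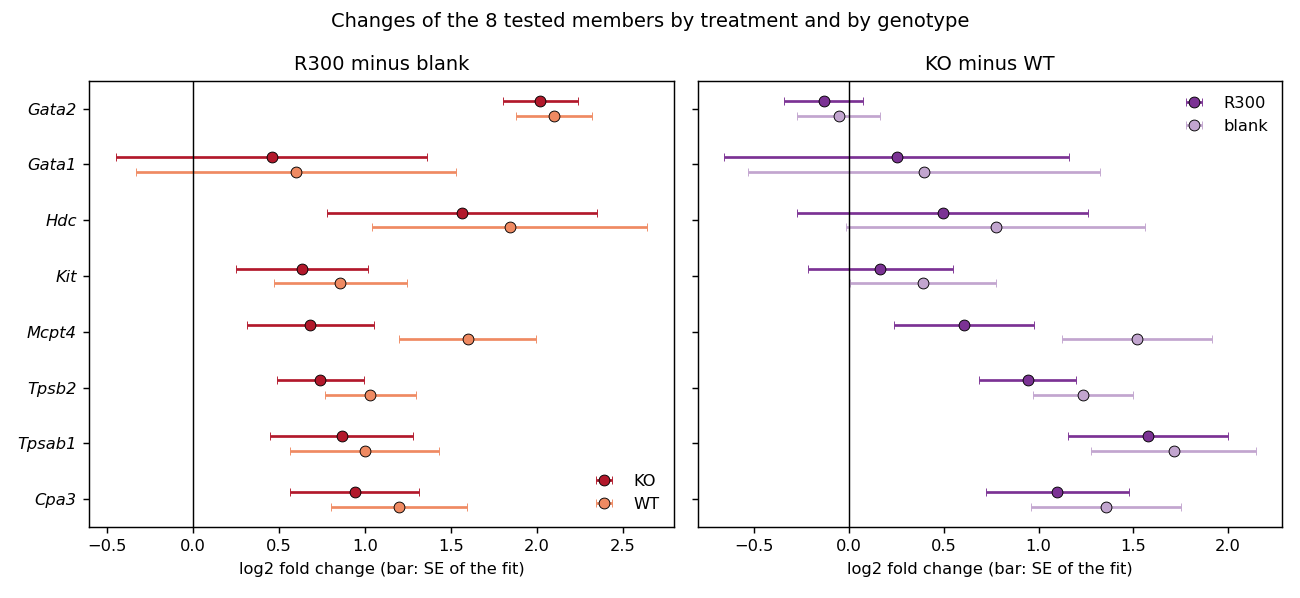
Points give log2 fold changes of the 8 tested genes and bars the standard error of the fit, for R300 minus blank on the left and KO minus WT on the right. Gata2 lies near 2 on the left and near 0 on the right, and the 4 proteases lie above 0 on both sides, between 0.61 and 1.71 on the right.

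Kit and Hdc were uneven among the libraries of the blank groups. Hdc, on chromosome 2 at 126593667 to 126619299, stood at 43.7, 26.3 and 17.1 CPM in R300 KO, against 3.53, 21.9 and 3.93 CPM in blank KO. In R300 WT it stood at 21.7, 14.8 and 25.3 CPM, against 1.95, 12.2 and 2.78 CPM in blank WT. Replicate 2 stood far above the other libraries of its group in both blank KO and blank WT. The log2 change with R300 in KO was 1.57 (SE 0.79, adjusted p = 0.648 by edgeR), and without blank KO replicate 2 it was 2.96 (SE 0.75, adjusted p = 0.174 by edgeR), which did not pass either.

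Kit, on chromosome 5 at 75574916 to 75656722, had its highest blank level in the same libraries. It stood at 9.28, 7.72 and 6.29 CPM in R300 KO, against 3.62, 6.91 and 4.48 CPM in blank KO. In R300 WT it stood at 6.52, 6.72 and 7.51 CPM, against 2.25, 6.61 and 2.48 CPM in blank WT. R300 and blank overlapped in both genotypes through replicate 2 of the blank cells. The log2 change with R300 in KO was 0.63 (SE 0.38, adjusted p = 0.774 by edgeR), and the KO minus WT difference (log2) was 0.17 (SE 0.38) with R300 and 0.39 (SE 0.39) in blank cells.

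The IgE receptor chains were near the limit of counting. Fcer1a, on chromosome 1 at 173221284 to 173227214, had 14, 12 and 1 reads in R300 KO, 9, 3 and 10 in R300 WT, 4, 7 and 5 in blank KO, and 1, 2 and 1 in blank WT. Ms4a2, on chromosome 19 at 11615523 to 11623719, had 5, 6 and 6 reads in R300 KO, 3, 0 and 2 in R300 WT, 2, 5 and 4 in blank KO, and 2, 0 and 3 in blank WT. Neither passed the filter on low counts, so no fold change is given. A count of 0, as in R300 WT replicate 2 for Ms4a2, allows up to 3 reads for counting error alone.

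None of the 10 genes overlaps a gene on the opposite strand in the annotation, so levels can be set per kilobase of exon. On that scale the mean levels of the members in R300 KO ran from Tpsab1 at 6.78 CPM, Tpsb2 at 4.90, Hdc at 4.55, Cpa3 at 3.91 and Mcpt4 at 2.65 to Gata2 at 1.58, Kit at 0.871, Gata1 at 0.457, Fcer1a at 0.314 and Ms4a2 at 0.0682. Gata2 in R300 WT, at 1.73 CPM per kilobase, was close to Mcpt4 at 1.74 and Cpa3 at 1.82. In blank KO Gata2 was at 0.389 CPM per kilobase, below Mcpt4 at 1.65 and Cpa3 at 2.04. In blank WT it was at 0.406, against 0.583 for Mcpt4 and 0.805 for Cpa3. The balance of the factor and the proteases therefore differed between groups.

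The ratio of Gata2 to the summed CPM of Mcpt4, Tpsb2, Tpsab1 and Cpa3 expresses that balance within a library. The protease sum was 42.1, 30.2 and 20.3 CPM in R300 KO, against 12.8, 12.5 and 15.2 CPM in R300 WT. In blank KO it was 15.6, 19.9 and 16.7 CPM, against 5.67, 4.66 and 8.38 CPM in blank WT. The sum was thus higher in blank KO, with little Gata2, than in R300 WT, with much Gata2, and these groups did not overlap in either quantity. The nearest libraries were at 15.6 and 15.2 CPM of the sum. Of the proteases, Tpsab1 alone kept these groups apart, at 5.13 to 9.87 against 4.40 to 5.02 CPM. Mcpt4, Tpsb2 and Cpa3 overlapped between them. The log2 ratio of Gata2 to the sum averaged -1.81 ± 0.27 in R300 KO, -0.53 ± 0.12 in R300 WT, -3.04 ± 0.25 in blank KO and -1.50 ± 0.25 in blank WT (SD, n = 3 each). It differed between R300 and blank by 1.23 in KO and by 0.97 in WT. No p is given for these sums, since their members were chosen with results known.

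**Figure D3:**
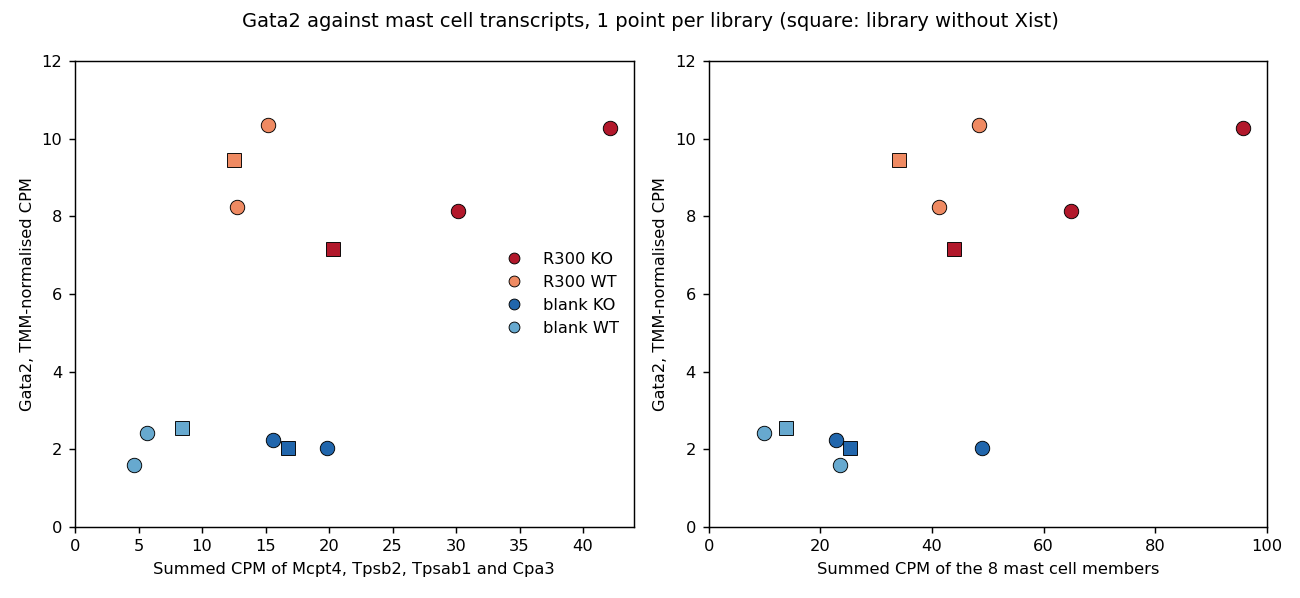
Each point is 1 library, with the TMM-normalised CPM of Gata2 on the vertical axis and, on the horizontal axis, the summed CPM of the 4 proteases on the left and of all 8 mast cell transcripts on the right. R300 libraries lie at 7.15 to 10.4 CPM of Gata2 and blank libraries at 1.59 to 2.56 CPM, and within each treatment KO libraries lie to the right of WT libraries on the left panel at overlapping levels of Gata2.

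In the 4 libraries without Xist the protease sum was 20.3 CPM in R300 KO against 12.5 CPM in R300 WT, and 16.7 CPM in blank KO against 8.38 CPM in blank WT. Tpsab1 differed less between the labels in these 4 than in the libraries with Xist. It stood at 6.55 CPM in R300 KO against 5.02 CPM in R300 WT, and at 5.13 CPM in blank KO against 3.52 CPM in blank WT. Tpsb2 stood at 6.42 CPM against 3.25 CPM with R300 and at 5.35 CPM against 2.37 CPM in blank cells. A term for the libraries without Xist was also added to the fit. The KO minus WT difference (log2) for Tpsb2 was then 0.94 (SE 0.25) with R300 and 1.24 (SE 0.27) in blank cells. The 4 libraries are 1 of each group, so this is a comparison of single libraries.

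Markers of other cells were read beside the proteases. Since edgeR called 0 of 16546 genes between the genotype labels in either treatment, no list could hold a gene that passed. Markers of resident peritoneal macrophages summed to 112 to 604 CPM in R300 KO, against 109 to 219 CPM in R300 WT. They summed to 78.8 to 492 CPM in blank KO, against 69.1 to 166 CPM in blank WT, so KO and WT overlapped in both treatments. All 10 of those markers, among them Gata6 and Timd4, had a positive KO minus WT difference (log2) in both treatments, with medians of 0.90 with R300 and 0.80 in blank cells, against -0.01 and 0.00 over all genes. Of all tested genes, 48.6% were positive with R300 and 50.7% in blank cells. Of 10 other genes listed for macrophages, 4 were positive with R300 and 2 in blank cells, with medians of -0.056 and -0.083. Among them the log2 difference with R300 was -0.0068 for Adgre1, 0.12 for Csf1r and 0.60 for Itgam. Lyz2, the lysozyme of macrophages, averaged 7090 CPM in R300 KO against 12530 CPM in R300 WT, and 6718 CPM in blank KO against 13000 CPM in blank WT, without overlap. The part of resident cells in the protease levels was not tested. When the log2 protease sum was added to the fit, after the data had been seen, the change of Gata2 in R300 KO against blank KO was 1.60 (SE 0.24, adjusted p = 0.0399 by edgeR), and with the log2 sum of all 8 mast cell transcripts it was 2.06 (SE 0.30, adjusted p = 0.0257 by edgeR). Both sums differed between treatments themselves and their members were chosen with results known, so these fits are a description. Whether Gata2 rose apart from mast cell content was not tested.

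Other mast cell genes were read beside the 10. Of 16 listed genes, 15 were in the table and 11 were tested. In R300 KO against blank KO, where 0.834% of all tested genes passed, none of these 11 did. Their median log2 change there was 0.64 and 10 of 11 were positive, against 49.3% of all genes. Tph1, which starts serotonin synthesis in mast cells, stood at 4.07, 2.94 and 1.72 CPM in R300 KO, against 1.64, 0.900 and 1.48 CPM in R300 WT. In blank KO Tph1 stood at 1.70, 2.03 and 1.15 CPM, against 0.476, 0.391 and 0.742 CPM in blank WT, so KO lay above WT in both treatments without overlap. Cma1, a chymase, averaged 8.08 CPM in R300 KO, 5.04 CPM in R300 WT, 4.91 CPM in blank KO and 2.29 CPM in blank WT, with KO above WT without overlap in R300 alone. Gpr35, a receptor that macrophages also carry, held most of the list's summed level and stood at 219.1, 206.0 and 52.7 CPM in R300 KO, against 35.6, 28.9 and 21.1 CPM in blank KO (log2 2.48, SE 0.54, adjusted p = 0.0718 by edgeR). The R300 KO library at 52.7 CPM is the one without Xist. Gpr35 passed in 4 of 21 alternative settings. With a term for the libraries without Xist its log2 change was 2.30 (SE 0.32, adjusted p = 0.00431 by edgeR).

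Basophils, eosinophils and progenitors were read because they can carry Gata2 too. In R300 KO against blank KO 0.834% of all tested genes passed, so a short list without a call says little. Mcpt8 and Prss34, proteases of basophils, averaged at most 0.0799 and 0.154 CPM in any group. Of 11 genes listed for basophils, which include Cpa3, 6 were tested and none passed in R300 KO against blank KO. The median log2 change of these 6 was 0.68 and 5 were positive, against 49.3% of all tested genes. Among them were Il6 at 2.28 (SE 1.07) and Il4 at 0.73 (SE 0.24). Il3ra was the negative one, at -0.04 (SE 0.24). The eosinophil granule proteins Prg2 and Epx averaged at most 0.105 and 0.150 CPM in any group, but other genes of that list were higher. Ccr3, an eotaxin receptor, averaged 17.6 CPM in R300 KO and 14.6 CPM in blank KO, Alox15, a lipoxygenase also listed for resident macrophages, 17.3 CPM and 17.4 CPM, and Siglecf, a lectin, 7.43 CPM and 6.84 CPM. The summed level of the list was 18.6 to 69.6 CPM in R300 KO, against 13.3 to 71.7 CPM in blank KO, and none of its 6 tested genes passed there. Among 8 tested genes of 10 listed for progenitors, Procr, the protein C receptor, passed as higher, at 39.0 CPM in R300 KO against 21.6 CPM in blank KO (log2 0.85, SE 0.17, adjusted p = 0.0455 by edgeR). That call was lost in 15 of 21 alternative settings. R300 cells had been with platelets, so platelet transcripts were read as well. Of 14 genes listed for megakaryocytes and platelets in the table, 11 were tested and none passed. The summed level of the list was 259 to 264 CPM in R300 KO, against 219 to 253 CPM in blank KO, without overlap. Of all single genes tested, 6.64% lay higher without overlap in that comparison. Vwf and Pf4, averaging 134.1 and 95.5 CPM in R300 KO, made up most of that sum. Their log2 changes were 0.05 (SE 0.35) and 0.25 (SE 0.38). Of the 11, 7 had a positive log2 change, the largest that of Clec1b at 1.45 (SE 0.55, adjusted p = 0.419 by edgeR). The rest were negative, the lowest Treml1 at -0.75 (SE 0.64).

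GATA2 works beside other factors in blood cells. Of 15 tested genes of 16 listed as such partners, none passed in either direction in R300 KO against blank KO, where 0.834% of all tested genes did. The median log2 change of the 15 was -0.35. Tal1, which binds DNA beside GATA factors, averaged 5.62 CPM in R300 KO against 2.86 CPM in blank KO (log2 0.98, SE 0.46, adjusted p = 0.600 by edgeR). Lmo4, an adaptor of such complexes, averaged 67.2 CPM in R300 KO against 160 CPM in blank KO (log2 -1.25, SE 0.32, adjusted p = 0.136 by edgeR). Runx1 averaged 120.6 CPM in R300 KO against 153.3 CPM in blank KO (log2 -0.35, SE 0.12, adjusted p = 0.351 by edgeR).

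Across libraries some members followed one another more closely than others did, described here by Pearson's r of log2(CPM + 0.5) without a test. Tpsb2 and Cpa3 had r = 0.98 over the 12 libraries, and r = 0.91 for deviations from the group means. Kit and Hdc had r = 0.96, and 0.93 for the deviations, and Gata1 and Hdc had 0.81 and 0.88. Between Tpsb2 and Cpa3 on one side and Kit, Hdc and Gata1 on the other, the deviations of Kit and Tpsb2 had r = -0.034, and those of Hdc and Cpa3 had r = -0.10. The deviations of the protease Tpsab1 did not keep to that division, at r = 0.51 with Gata1, 0.46 with Hdc and 0.32 with Kit, against 0.34 with Tpsb2, 0.17 with Mcpt4 and 0.15 with Cpa3. All values share libraries and depth, and near-alike libraries count as separate points.

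**Figure D4:**
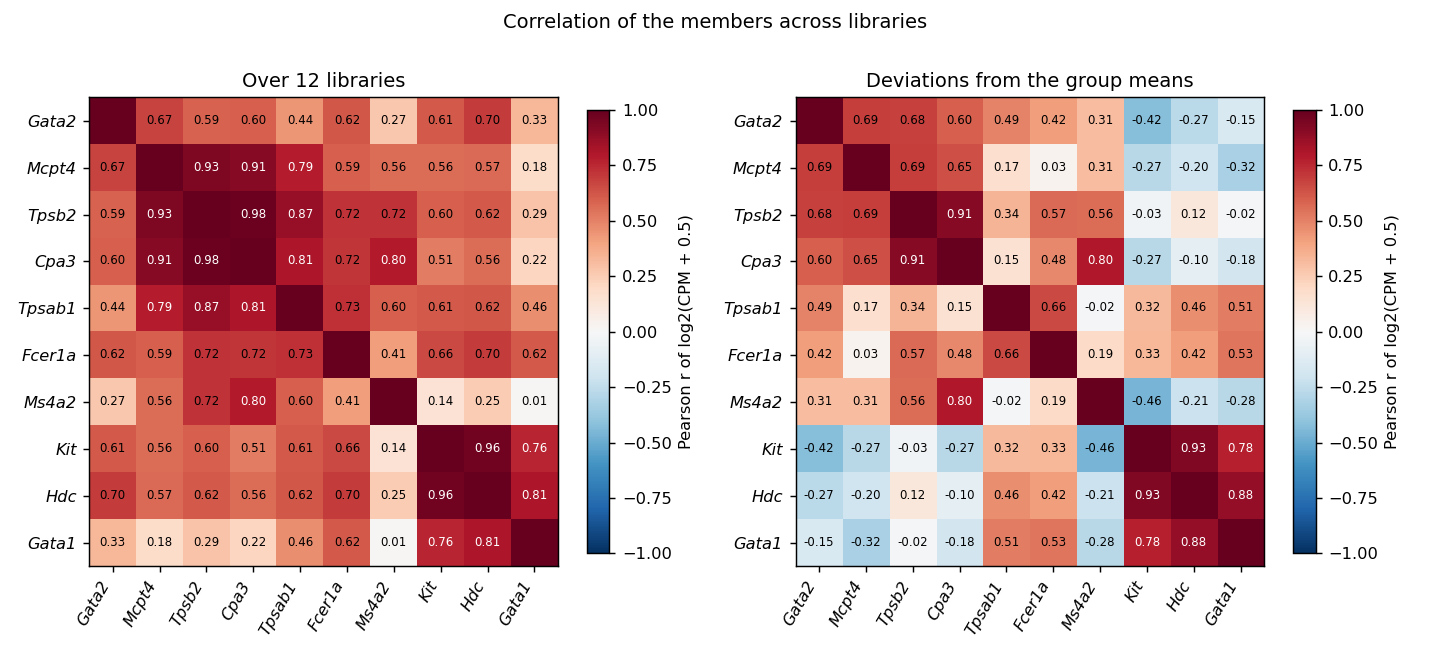
Colour and figures give Pearson's r of log2(CPM + 0.5) between members, over 12 libraries on the left and for deviations from the group means on the right. On the right Mcpt4, Tpsb2 and Cpa3 have r of 0.65 to 0.91 with one another and Kit, Hdc and Gata1 r of 0.78 to 0.93, Tpsab1 lies between these, and Gata2 has positive r with the proteases and negative r with Kit, Hdc and Gata1.

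Within groups Gata2 and the proteases deviated together, while within a treatment, across the genotypes, r was near 0. Because Gata2 fell into separate ranges by treatment, r was taken within treatment, where both genotypes enter. Over the 6 R300 libraries Gata2 and the log2 protease sum had r = 0.089 (Spearman's rho -0.086), and over the 6 blank libraries r = 0.15 (rho -0.029). For deviations from the 4 group means, in which the genotype difference is removed, r was 0.69 with Mcpt4, 0.68 with Tpsb2, 0.60 with Cpa3 and 0.49 with Tpsab1, against -0.42 with Kit, -0.27 with Hdc and -0.15 with Gata1. With Kit and Hdc the sign differed between treatments, at r = 0.66 and 0.49 over the 6 R300 libraries and at r = -0.86 and -0.71 over the 6 blank libraries. Over all 12 libraries the member most like Gata2 was Hdc (r = 0.70), and 809 of 16545 other tested genes had a higher r with Gata2. For Mcpt4 that number was 976, for Cpa3 1354, for Tpsb2 1441, for Tpsab1 2688 and for Gata1 3971.

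The genes whose levels were most like Gata2 over the 12 libraries were no mast cell genes. Over the 12086 genes compared, each averaging 20 counts or more, the 6 highest values of r belonged to Slc2a1 (0.98), Mir132 (0.98), Auh (0.97), Hdac5 (0.97), Mxi1 (0.97) and Isy1 (0.97), and 124 genes were above 0.9. Slc2a1, a glucose transporter, averaged 252 CPM in R300 KO, 255 CPM in R300 WT, 131 CPM in blank KO and 140 CPM in blank WT. Mxi1, a repressor of the MYC network, averaged 288 CPM in R300 KO, 260 CPM in R300 WT, 47.9 CPM in blank KO and 51.2 CPM in blank WT. Hdac5, a histone deacetylase, averaged 270 CPM in R300 KO, 258 CPM in R300 WT, 78.0 CPM in blank KO and 79.6 CPM in blank WT. Within groups the r of these 6 with Gata2 was 0.065 to 0.64, so their likeness lay mostly between R300 and blank.

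The genes most like the summed mast cell transcripts were a different set. The 6 were Gpr171 (r = 0.97), Kctd4 (0.94), Lmbrd1 (0.94), Cd80 (0.93), Hars (0.93) and Lyn (0.93). Lyn, a kinase of the IgE receptor that macrophages also carry, averaged 314 CPM in R300 KO, 274 CPM in R300 WT, 219 CPM in blank KO and 190 CPM in blank WT. Cd80, a costimulatory ligand of antigen-presenting cells, averaged 97.8 CPM in R300 KO, 61.6 CPM in R300 WT, 21.7 CPM in blank KO and 13.7 CPM in blank WT. That sum is weighted to Hdc, which made up 15.4% to 52.5% of it. With the sum of the 4 proteases in its place, Tph1 was second (r = 0.96, 0.82 within groups) and Capns1 first (r = 0.98), both chosen after their values were seen.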

How the data were processed

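RNA of 12 mouse peritoneal macrophage libraries was analysed from the raw read counts per gene symbol that the authors deposited. The submitters' processing notes name the mm10 genome and, in no stated order, featureCounts 2.0.3, HISAT2 (version 2), fastp 0.23.4, FastQC 0.12.1 and DESeq2 1.42.0. The labels' protocols give an enrichment of mRNA with oligo(dT) beads and a library kit. Each deposited sample file matched its column in the series table, and the 102 rows without a symbol (0.0232% to 0.0328% of counts) were left out.

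Counts were scaled by TMM and tested with edgeR 4.0.16 in R 4.3.3 (filterByExpr by group, robust quasi-likelihood fit, 1 mean per group over 12 libraries). Of the rows, 16546 were tested, and Benjamini-Hochberg adjusted p under 0.05 over all of them was called. Counts varied between libraries of a group with a common biological coefficient of variation of 0.267. The alternative test was DESeq2 1.42.0. The submitters speak of biological replicates but do not say which mice gave which library, so p-values measure the spread between libraries. A single value compared between 3 and 3 libraries cannot reach an exact two-sided p under 0.1. CPM are TMM-normalised.

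The members and gene lists were chosen with earlier results of these data known. Named genes were the 10 members, Ern1, the 6 genes most like Gata2 and the 6 most like the mast cell sum by Pearson's r, and listed markers. The listed markers that the text singles out were picked after their values were seen. Same-numbered libraries of blank KO and blank WT deviated together (r = 0.587, 0.608 and 0.654), and in that comparison a replicate block changed no call. Loci and exon lengths come from GENCODE vM21 (GRCm38, the assembly that mm10 names) and promoters from RefSeq. Protein sequences were not used here.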

Additional observations from a re-analysis of the deposited data

How the results depend on the processing

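The call of Gata2 in R300 KO against blank KO held in all 23 alternatives, with log2 changes of 1.60 to 2.12 and adjusted p of 1.08e-16 to 0.0406. Among them were each library left out, a minimum fold of 2 and 1 library of each near-alike pair. The fits with a mast cell or protease sum were also among them and are a description. With a replicate block the change was 2.02 (adjusted p = 0.00407 by edgeR). Pairing by number was uneven in the other comparisons. Same-numbered libraries had r = 0.40, 0.013 and 0.671 for R300 KO and blank KO, and 0.424, 0.016 and -0.531 for R300 WT and blank WT. For R300 KO and R300 WT they had r = 0.414, -0.717 and -0.583. R300 WT replicate 2 instead deviated with blank WT replicate 3 (r = 0.646) and R300 KO replicate 3 (r = 0.711), all libraries without Xist. A block by number does not follow that division. The block changed no member's call in any comparison. With a term for the libraries without Xist, 450 genes were called in R300 KO against blank KO, where the main fit called 138. Gata2 was the 1 member called there in both. DESeq2 called 1 member in blank KO against blank WT (Tpsb2, of 4 genes), where edgeR called 0; the cause was not tested. In R300 WT against blank WT, the comparison behind the choice of genes, 3 members were past the threshold with DESeq2 and 1 with edgeR, and nothing is read from these counts.

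Values that changed sign did not pass in the settings where they did so, and most were smaller than their errors. Without blank KO replicate 2, Gata1 in blank KO against blank WT was -0.996 (SE 0.977) and the difference of responses was 1.12 (SE 0.91) for Hdc, both larger than their errors, and 1.25 (SE 1.25) for Gata1. The Gata1 difference of R300 KO from R300 WT was -0.076 with the block, and the Gata2 difference of responses was 0.033 with 1 library of each near-alike pair. Leaving out 1 library at a time, Gata1 ranged from -0.071 to 1.85 in R300 KO against blank KO, from -0.27 to 0.67 in R300 KO against R300 WT and from -0.996 to 1.71 in blank KO against blank WT. In the last comparison Gata2 ranged from -0.25 to 0.078 and Hdc from -0.62 to 2.05. The difference of responses ranged from -0.24 to 0.11 for Gata2, -1.46 to 1.25 for Gata1, -0.52 to 0.20 for Tpsab1, -0.51 to 0.089 for Cpa3, -0.91 to 0.083 for Kit and -1.55 to 1.12 for Hdc. The log2 ratio of Gata2 to the sum of all 8 mast cell transcripts differed between R300 and blank by 0.92 in KO (0.56 to 1.18) and by 0.65 in WT (0.10 without blank WT replicate 2 to 1.03).

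Depth limits Fcer1a, Ms4a2 and, in blank WT, Mcpt4 to a few reads per library. Genotype cannot be told apart from the mix of Xist-holding libraries outside the 4 without Xist, and whole-gene counts do not check the deletion of Ern1.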

Other observations

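Genes near Gata2 were read after the values above had been seen, in a window of 500 kb on either side. Of 18 tested genes in it, 1 was called in R300 KO against blank KO, beside 0.834% of all tested genes. This was Isy1, a splicing factor gene 355 kb away. It averaged 47.1 CPM in R300 KO, 43.4 CPM in R300 WT, 12.8 CPM in blank KO and 12.5 CPM in blank WT (log2 1.88 for R300 KO against blank KO, SE 0.14, adjusted p = 9.87e-05 by edgeR). Isy1 overlaps the tested genes Gm45140 and B130021K23Rik in position, so how their reads were split is uncertain. The nearest tested genes on either side of Gata2, Rpn1 and Eefsec, had log2 changes of 0.17 (SE 0.09) and 0.03 (SE 0.21) there. Cnbp, beside Isy1, averaged 339 CPM in R300 KO against 253 CPM in blank KO (log2 0.42, SE 0.13, adjusted p = 0.241 by edgeR).

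Gata1 and Hdc were most like genes that no mast cell list holds. Cks2, a cell cycle protein, had r = 0.98 with Gata1 over the 12 libraries, and Slc7a11, a cystine transporter, had 0.96. Ets2, a transcription factor, had r = 0.98 with Hdc and averaged 541 CPM in R300 KO, 438 CPM in R300 WT, 253 CPM in blank KO and 200 CPM in blank WT. These are descriptions over libraries that include near-alike pairs.

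Beside 0.834% of all tested genes called in R300 KO against blank KO, the remaining lists of other cells had 0 called. Their median log2 changes there were -0.36 for erythroid cells, 0.23 for endothelial cells, 0.41 for mesothelial cells and fibroblasts, -0.67 for B cells, -0.12 for T and NK cells, -0.29 for neutrophils and -0.59 for recruited monocytes. They were 0.08 for macrophages, 0.31 for resident peritoneal macrophages, 0.05 for eosinophils, 0.25 for megakaryocytes and platelets and -0.03 for mast cell genes that macrophages share.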
